A study of Mus musculus with 12 samples.

Results

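Mouse gastric organoids kept with Helicobacter pylori for 4 h were compared with untreated gastric organoids, for which the labels give no incubation time. The comparison takes 6 of the 12 RNA-seq libraries of the study, 3 with Helicobacter pylori and 3 untreated, and covers the 12805 genes that passed a filter on low counts out of the 25759 listed. Organoids are hollow balls of epithelium that stomach gland cells form in a gel. By the labels, all groups were grown in matrigel and, at the first passage, were put on matrigel in medium without growth factors or antibiotics, and bacteria were then added to the treated groups. The other 6 libraries, 3 with Neisseria subflava and 3 with Fusobacterium nucleatum, share the untreated organoids as their control. They entered the filter, the scaling and the estimate of spread, and are otherwise used here only where set directly against the Helicobacter libraries. The bacterial strain, the number of bacteria per cell, and the mouse line, age and number of animals behind the organoids are not given in the sources used here. Replicates are separate libraries per the labels, and nothing says whether they came from separate cultures, so a p-value here reflects the spread among these libraries alone, which may be technical.

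Helicobacter pylori is a spiral bacterium that colonises the mucus of the stomach and attaches to its surface epithelium. Pit cells at the surface secrete gastrokines and the trefoil peptide Tff1, while neck cells deeper in the glands secrete the mucin Muc6 with the trefoil peptide Tff2, and chief cells secrete pepsinogens. Epithelial cells answer changes in oxygen, small aromatic molecules and amino acid supply through separate transcription programmes: the HIF factors, which prolyl hydroxylases mark for destruction when oxygen is present; the aryl hydrocarbon receptor (AHR); and the integrated stress response, in which phosphorylation of eIF2α leads to synthesis of the factor ATF4.

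Total counts were 23236260, 20616026 and 19078862 in Helicobacter replicates 1 to 3, against 22720399, 17248185 and 19681895 in untreated replicates 1 to 3. Epithelial identity held in all 6 libraries: the epithelial adhesion molecule Epcam was at 795, 766 and 816 TPM (transcript abundance scaled for gene length and library size) with Helicobacter and at 764, 756 and 754 TPM in untreated organoids. Parietal cell genes were close to absent, with the proton pump subunit Atp4b at 0 in every library and Atp4a at 1.9, 1.64 and 1.66 TPM with Helicobacter, against 2.69, 2.69 and 1.83 TPM in untreated organoids. Transcripts of pancreatic marker genes stood apart. The 19 islet genes listed summed to 2682, 132 and 64 counts in Helicobacter replicates 1, 2 and 3, against 3799, 3740 and 3260 counts in the untreated libraries. The acinar genes summed to 394, 140 and 126 counts with Helicobacter, against 516, 474 and 526 counts in untreated organoids. Helicobacter replicate 1 therefore carried these transcripts as the untreated libraries did, and replicates 2 and 3 carried few of them. Each result below was also computed without Helicobacter replicate 1.

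With a threshold of 0.05 on the adjusted p of edgeR's quasi-likelihood test, 2419 of the 12805 genes differed (18.9%), 1349 of them higher with Helicobacter (10.5% of genes tested) and 1070 lower (8.36%). Most changes were small: the median log2 fold change was 0.28 among the genes that rose and -0.30 among those that fell, while 119 rose and 49 fell by at least 2-fold. Of the 9 genes that rose by a log2 of 4 or more, 8 averaged less than 1 TPM with Helicobacter and are not named. Without Helicobacter replicate 1, 1916 of 13021 genes differed (14.7%), 1076 higher (8.26%) and 840 lower (6.45%). Of the 2419 genes, 1020 were higher and 750 were lower in both fits, 649 no longer passed the threshold and 0 were called in opposite directions. Where a list below has 1 or 2 members called in a direction, that count often fell when a single library was left out. Single libraries also moved the counts over all genes: 1594 genes were called without untreated replicate 1 and 1596 without untreated replicate 2, and the lower genes numbered 653 without Helicobacter replicate 3, 656 without untreated replicate 1 and 673 without untreated replicate 2. Fitting the 6 compared libraries alone gave 1929 calls among 12289 genes, 1060 higher and 869 lower. The balance between higher and lower calls depended on the scaling of the libraries. With TMM scaling 55.8% of calls were higher, whereas scaling by the total alone gave 863 higher and 1824 lower genes (32.1% higher) with a median log2 change of -0.058 over all genes, and limma on log2(TPM + 1) gave 659 higher and 2012 lower genes (24.7% higher). Small changes below are therefore relative to the bulk of genes, which TMM scaling sets close to 0 (median 0.002).

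**Figure D1:**
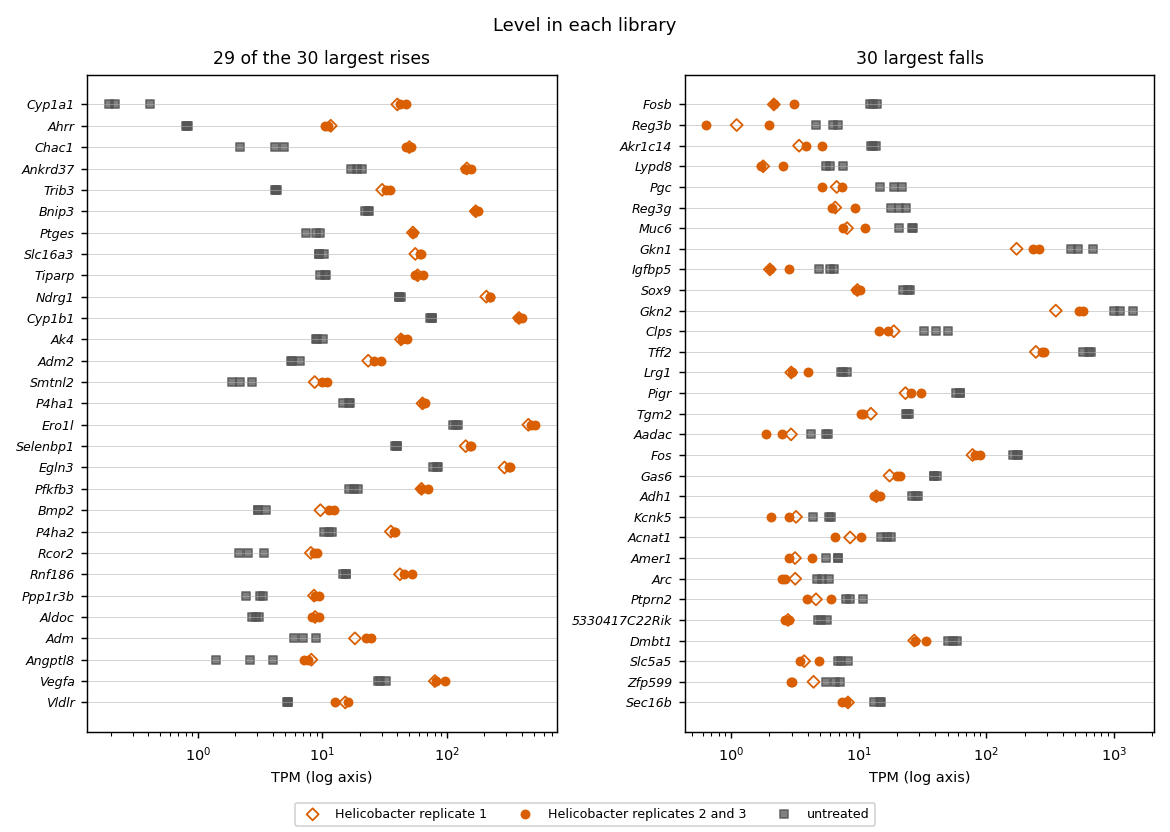
TPM in each of the 6 libraries (log axis) for 29 of the 30 largest rises (left) and the 30 largest falls (right), with Helicobacter replicate 1 as open diamonds, replicates 2 and 3 as filled circles and untreated libraries as squares. Cyp1a1 is separated most, at 40.1, 46.7 and 42.5 TPM with Helicobacter against 0.218, 0.192 and 0.411 TPM in untreated organoids, and replicate 1 lies on the same side of the untreated libraries as replicates 2 and 3, as the rule for naming required.

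Genes that answer low oxygen rose as a group. Of 35 tested hypoxia-induced genes outside glycolysis, 27 rose and 0 fell, with a median log2 fold change of 1.06 against 0.002 over all tested genes; the same counts came without Helicobacter replicate 1. Bnip3, a mitochondrial protein that promotes mitophagy, was at 171, 168 and 179 TPM with Helicobacter and 23.9, 23.4 and 21.9 TPM in untreated organoids. That is a fold change of log2 3.0 ± 0.07 (SE; edgeR adjusted p = 6.63e-20). Ndrg1, a stress-responsive cytoplasmic protein, was at 208, 223 and 223 TPM with Helicobacter, against 41.1, 43.3 and 41.2 TPM in untreated organoids (log2 2.48 ± 0.04). In both genes the groups were far apart and the 3 libraries of each group lay close together.

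Other large rises of this list included Ankrd37, Ero1l, the P4ha subunits and Vegfa. Ankrd37, an ankyrin-repeat protein, was at 145, 140 and 156 TPM with Helicobacter and 19, 17 and 20.7 TPM in untreated organoids (log2 3.05 ± 0.10). Ero1l, the oxidase that re-oxidises protein disulphide isomerase in the endoplasmic reticulum, was at 453, 515 and 473 TPM with Helicobacter, against 118, 124 and 112 TPM in untreated organoids (log2 2.13 ± 0.05). The collagen prolyl hydroxylase subunits P4ha1 and P4ha2 rose by log2 2.14 ± 0.05 and 1.83 ± 0.07. Vegfa, the growth factor for blood vessels, was at 80.3, 96.7 and 82.6 TPM with Helicobacter and 28.2, 32.3 and 29.2 TPM in untreated organoids (log2 1.63 ± 0.06), and Adm, the vasodilator peptide adrenomedullin, at 18.3, 24.5 and 22.3 TPM with Helicobacter against 5.97, 8.93 and 7 TPM in untreated organoids (log2 1.68 ± 0.12). For Adm, Vegfa and Bmp2, a bone morphogenetic protein that is not on the list, the lowest Helicobacter value was that of replicate 1, and the log2 change without it was 1.79 ± 0.12, 1.68 ± 0.06 and 1.98 ± 0.11. Selenbp1, a selenium-binding methanethiol oxidase, rose by log2 2.05 ± 0.06 and the mitochondrial adenylate kinase Ak4, which is not on the list, by log2 2.36 ± 0.06. Car9, the membrane carbonic anhydrase often used as a hypoxia marker, was already at 105, 106 and 104 TPM in untreated organoids and at 132, 147 and 145 TPM with Helicobacter, a smaller rise of log2 0.53 ± 0.05.

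Glucose handling rose with them. Of 25 tested genes of glucose uptake, glycolysis and lactate, 17 rose and 0 fell (median log2 0.58), and 16 rose and 0 fell without Helicobacter replicate 1. The lactate exporter Slc16a3 (MCT4) was at 55.9, 61.5 and 62.1 TPM with Helicobacter and 10.3, 9.4 and 9.5 TPM in untreated organoids (log2 2.72 ± 0.06). Pfkfb3, which makes the fructose 2,6-bisphosphate that activates phosphofructokinase and is counted in the hypoxia list, was at 62.7, 70.8 and 61.7 TPM with Helicobacter, against 17.9, 19.3 and 16.3 TPM in untreated organoids (log2 1.97 ± 0.06). The glucose transporter Slc2a1 rose by log2 1.33 ± 0.05, the phosphofructokinases Pfkl and Pfkp by 1.03 ± 0.04 and 1.09 ± 0.05, and Pdk1, the kinase that shuts pyruvate dehydrogenase, by 1.51 ± 0.07. Enzymes that were abundant from the start rose less: Pgk1 was at 1553, 1530 and 1579 TPM with Helicobacter and 912, 937 and 945 TPM in untreated organoids (log2 0.84 ± 0.04), and Ldha at 1018, 1034 and 1015 TPM with Helicobacter and 645, 646 and 662 TPM in untreated organoids (log2 0.75 ± 0.04).

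Among the 12 tested regulators of the HIF pathway, 4 rose and 4 fell. Of the 3 prolyl hydroxylases that mark HIF-α for destruction, Egln3 and Egln1 rose and Egln2 did not pass the threshold (log2 -0.08 ± 0.08). Egln3 was at 291, 321 and 316 TPM with Helicobacter and 82.8, 85.8 and 77.5 TPM in untreated organoids (log2 2.02 ± 0.05), and Egln1 at 56.9, 60.2 and 58.8 TPM with Helicobacter and 24.2, 23.7 and 25.1 TPM in untreated organoids (log2 1.37 ± 0.05). Vhl, the substrate receptor of the ubiquitin ligase that binds hydroxylated HIF-α, rose by log2 0.46 ± 0.07, and Cited2, which competes with HIF for its coactivator, by 0.35 ± 0.09. The mRNA of Hif1a itself was lower, at 35.9, 38.2 and 32.2 TPM with Helicobacter against 49.9, 50 and 47.8 TPM in untreated organoids (log2 -0.38 ± 0.05), with no overlap between the groups. Epas1, which encodes HIF-2α, was lowly expressed and lower (log2 -0.48 ± 0.14), and so was Hif1an, the asparagine hydroxylase that blocks coactivator binding (log2 -0.27 ± 0.07). These last calls depended on single libraries, and 2 or 3 of the list fell when each library was left out in turn: the edgeR adjusted p of Epas1 was 0.0761 without Helicobacter replicate 3 and 0.087 without untreated replicate 3, and that of Hif1an was 0.0504 without untreated replicate 2. Arnt, the partner subunit that HIF-α shares with AHR, had a log2 change of -0.13 ± 0.08 and did not pass the threshold. Of 18 tested oxygen-dependent chromatin demethylases, 4 rose and 2 fell (4 fell without Helicobacter replicate 2); the H3K9 demethylase Kdm3a was at 66, 72.8 and 62.8 TPM with Helicobacter and 28.4, 29.4 and 26.3 TPM in untreated organoids (log2 1.36 ± 0.05), and Kdm4b rose by 0.93 ± 0.06.

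The promoters of 3 of these genes are shown because they hold ACGTG, a form of the core of the hypoxia response element, which HIF binds. Sequences are from RefSeq on GRCm38.p6, 250 bases before to 50 after the annotated start, 5′ to 3′ along the gene, with ACGTG on either strand in capitals. In Bnip3 the capitals CACGTG read as ACGTG on both strands.
Ankrd37 (chr8:45999801-46000100, minus strand): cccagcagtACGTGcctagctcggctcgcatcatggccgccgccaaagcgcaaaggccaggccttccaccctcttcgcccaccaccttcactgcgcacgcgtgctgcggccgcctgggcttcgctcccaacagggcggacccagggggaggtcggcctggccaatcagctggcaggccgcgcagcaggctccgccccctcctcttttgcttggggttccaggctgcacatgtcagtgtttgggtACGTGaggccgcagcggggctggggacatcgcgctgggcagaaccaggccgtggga
Bnip3 (chr7:138909457-138909756, minus strand): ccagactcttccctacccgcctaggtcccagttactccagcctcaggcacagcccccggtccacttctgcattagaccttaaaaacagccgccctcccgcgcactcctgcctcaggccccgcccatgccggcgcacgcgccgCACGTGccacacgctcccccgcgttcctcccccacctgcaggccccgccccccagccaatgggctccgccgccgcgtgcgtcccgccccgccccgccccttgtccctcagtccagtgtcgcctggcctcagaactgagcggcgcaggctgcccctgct
Slc16a3 (chr11:120948817-120949116, plus strand): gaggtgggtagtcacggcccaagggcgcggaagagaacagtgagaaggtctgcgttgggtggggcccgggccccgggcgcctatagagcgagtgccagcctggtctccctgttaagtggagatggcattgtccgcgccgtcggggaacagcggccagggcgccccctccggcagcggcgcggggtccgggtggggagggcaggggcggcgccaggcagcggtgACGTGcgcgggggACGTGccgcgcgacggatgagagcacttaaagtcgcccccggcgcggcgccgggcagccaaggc

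Promoter windows were found for 26 of the 30 largest rises (33 windows, since some genes have several starts) and for 22 of the 30 largest falls (24 windows). ACGTG on either strand was in 42.4% of the windows of the rises and 25% of those of the falls, against 25.1% of the 12970 windows of tested genes. These are matches of letters only and were not tested.

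The AHR genes held the largest of the named rises. Of 15 tested genes of this list 9 rose and 0 fell (median log2 0.36), also without Helicobacter replicate 1. Cyp1a1, the P450 enzyme classically switched on by AHR ligands, was at 40.1, 46.7 and 42.5 TPM with Helicobacter, against 0.218, 0.192 and 0.411 TPM in untreated organoids, a log2 fold change of 7.36 ± 0.12 or 165-fold (edgeR adjusted p = 7.48e-23). Its relative Cyp1b1 started from a higher level, at 381, 406 and 372 TPM with Helicobacter and 75.9, 76.6 and 73.7 TPM in untreated organoids (log2 2.46 ± 0.04). The epithelial P450 Cyp2s1 rose by log2 1.54 ± 0.06. All 3 P450 genes were separated between the groups in every library, which the rule for naming required of Cyp1a1 and Cyp1b1. Over all 12805 tested genes, 2166 lay above and 1986 below the untreated libraries without overlap.

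Genes that restrain the receptor rose strongly too. Ahrr, the AHR repressor that competes for Arnt, was at 11.7, 11.2 and 10.5 TPM with Helicobacter and 0.808, 0.814 and 0.842 TPM in untreated organoids (log2 3.86 ± 0.13). Tiparp, an ADP-ribosyltransferase that lowers AHR protein, was at 58.4, 64.6 and 55.9 TPM with Helicobacter and 10.7, 10.6 and 9.58 TPM in untreated organoids (log2 2.63 ± 0.05). The receptor's own mRNA moved little: Ahr was at 18.4, 21.5 and 17.9 TPM with Helicobacter and 16.9, 18.7 and 18 TPM in untreated organoids, values that overlap in TPM, with a fitted log2 change of 0.21 ± 0.06 that passed the threshold but had an adjusted p by edgeR of 0.0891 without Helicobacter replicate 2, 0.132 without untreated replicate 1 and 0.103 when libraries were scaled by total alone. The Cyp1a1 promoter holds a single core of the dioxin response element, GCGTG, the letters bound by AHR and Arnt, in capitals at 54 bases before the start.
Cyp1a1 (chr9:57697363-57697662, plus strand): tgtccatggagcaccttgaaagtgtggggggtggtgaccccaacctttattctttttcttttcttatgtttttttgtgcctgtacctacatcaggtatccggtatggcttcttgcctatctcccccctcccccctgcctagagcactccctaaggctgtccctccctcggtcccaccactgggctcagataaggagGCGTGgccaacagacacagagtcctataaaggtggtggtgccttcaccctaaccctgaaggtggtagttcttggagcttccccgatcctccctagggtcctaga

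GCGTG on either strand was in 72.7% of the windows of the 30 largest rises and 33.3% of those of the largest falls, against 50% of the windows of tested genes. The 30 rises include hypoxia genes as well as AHR genes. These too are matches of letters only and were not tested.

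Genes of the integrated stress response rose as a group. Of 21 tested members 17 rose and 2 fell (median log2 0.56), and 16 rose and 1 fell without Helicobacter replicate 1. Chac1, which degrades glutathione, was at 50.1, 52 and 47.4 TPM with Helicobacter and 4.2, 4.97 and 2.17 TPM in untreated organoids (log2 3.83 ± 0.12, 14.2-fold). Trib3, a pseudokinase that dampens ATF4, was at 30.3, 34.9 and 32.6 TPM with Helicobacter and 4.29, 4.15 and 4.35 TPM in untreated organoids (log2 3.03 ± 0.09). Untreated replicate 3 had the lowest Chac1 level, and neither gene overlapped between the groups, as the rule for naming required. The factors themselves rose less: Atf4 was at 438, 457 and 460 TPM with Helicobacter, against 279, 276 and 275 TPM in untreated organoids (log2 0.81 ± 0.04), Atf3 rose by log2 1.56 ± 0.08, and Ddit3, which encodes the factor CHOP, by 1.25 ± 0.13. The lipoprotein receptor Vldlr rose by log2 1.58 ± 0.07. The 2 members that fell encode kinases of eIF2α, Eif2ak1, the haem-regulated kinase (log2 -0.21 ± 0.06), and Eif2ak4, the kinase GCN2 that senses uncharged tRNA (log2 -0.27 ± 0.09). Both of these calls depended on single libraries: by edgeR the adjusted p of Eif2ak1 was 0.0504 to 0.0886 without Helicobacter replicate 3, untreated replicate 1 or untreated replicate 2, and that of Eif2ak4 was 0.0715 to 0.207 when any library but Helicobacter replicate 2 was left out.

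Both leading genes are shown with the letters of the C/EBP-ATF response element (CARE), which ATF4 binds with a C/EBP partner. The search used TGATGNAA on either strand, and the capitals mark its reverse complement.
Chac1 (chr2:119350992-119351291, plus strand): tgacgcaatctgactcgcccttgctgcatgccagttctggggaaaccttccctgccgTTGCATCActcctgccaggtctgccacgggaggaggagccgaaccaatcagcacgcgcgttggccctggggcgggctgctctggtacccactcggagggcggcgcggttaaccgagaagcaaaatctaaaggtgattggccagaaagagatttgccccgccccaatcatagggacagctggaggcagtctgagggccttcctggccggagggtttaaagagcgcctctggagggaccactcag
Trib3 (chr2:152344011-152344310, minus strand): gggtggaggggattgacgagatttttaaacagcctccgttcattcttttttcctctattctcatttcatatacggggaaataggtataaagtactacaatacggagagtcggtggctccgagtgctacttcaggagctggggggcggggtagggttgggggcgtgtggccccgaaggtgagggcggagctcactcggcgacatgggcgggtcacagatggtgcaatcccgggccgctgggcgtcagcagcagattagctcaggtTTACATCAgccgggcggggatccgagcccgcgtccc

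This motif was in 12.1% of the windows of the 30 largest rises, 4.17% of those of the largest falls and 2.3% of those of tested genes. The match in Trib3 lies after the annotated start, and these letter matches were not tested either.

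Amino acid genes, several of which are known ATF4 targets, moved both ways. Of 18 tested amino acid synthesis genes 9 rose and 2 fell. Mthfd2, of mitochondrial folate metabolism, rose by log2 0.77 ± 0.06, the mitochondrial phosphoenolpyruvate carboxykinase Pck2 by 0.78 ± 0.07, and Psph, which makes serine, by 0.66 ± 0.09. Glul, glutamine synthetase, went the other way, at 212, 222 and 203 TPM with Helicobacter and 313, 312 and 313 TPM in untreated organoids (log2 -0.46 ± 0.04). Of 18 tested amino acid transporters 6 rose and 4 fell (2 fell without untreated replicate 1); Slc7a5, the carrier of large neutral amino acids, rose by log2 0.67 ± 0.06 and its partner Slc3a2 by 0.31 ± 0.04, while the cystine carrier Slc7a11 fell (log2 -0.25 ± 0.06). Of 20 tested aminoacyl-tRNA synthetases 7 rose and 2 fell, and 4 to 11 rose when each library was left out in turn (4 without Helicobacter replicate 1 or untreated replicate 1 or 2, 11 without Helicobacter replicate 2). Among 26 tested genes of the unfolded protein response 10 rose and 1 fell (median log2 0.12), and 5 rose without untreated replicate 1 or untreated replicate 2; Herpud1, of endoplasmic reticulum-associated degradation, was at 139, 161 and 160 TPM with Helicobacter and 83.8, 88 and 80.6 TPM in untreated organoids (log2 0.97 ± 0.05), whereas the chaperone Hspa5 moved by 0.25 ± 0.04.

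**Figure D2:**
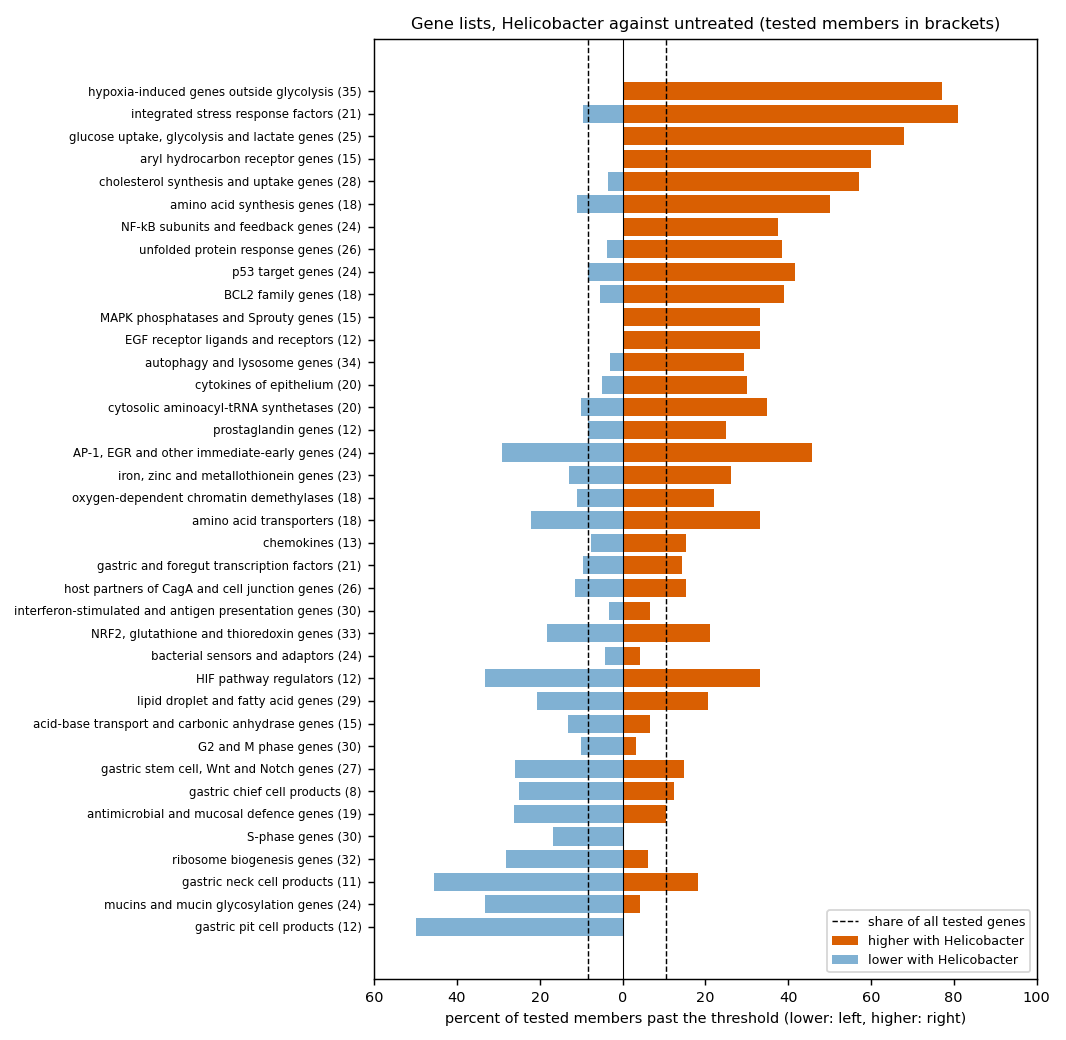
Percent of the tested members of each gene list that passed the threshold, higher with Helicobacter to the right and lower to the left, with the number tested in brackets; dashed lines mark 10.5% and 8.36%, the shares of all tested genes. Hypoxia, integrated stress response, glycolysis and AHR genes reach furthest to the right, and pit cell and neck cell genes furthest to the left, followed by the mucin list and the HIF regulators at 33.3% each.

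Most inflammatory genes changed by small amounts. Of 24 tested NF-κB subunits and feedback genes 9 rose (37.5%) and 0 fell, against 10.5% and 8.36% over all genes. The median log2 change of the list was 0.13, and scaled by total alone 8 rose and 2 fell. Tnfaip2, an NF-κB-responsive protein of membrane tubes, was at 141, 149 and 133 TPM with Helicobacter and 84.6, 80.2 and 78.6 TPM in untreated organoids (log2 0.90 ± 0.04). The inhibitor Nfkbia, whose transcription NF-κB drives, was at 87.7, 90.5 and 88.8 TPM with Helicobacter and 82.5, 72.9 and 67.5 TPM in untreated organoids (log2 0.36 ± 0.06), and the deubiquitinase Tnfaip3 rose by 0.34 ± 0.05. The subunit Rela rose by log2 0.38 ± 0.06, and Nfkb1 did not pass the threshold (log2 -0.05 ± 0.05).

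Of 13 tested chemokines 2 rose (15.4%) and 1 fell (7.69%), close to the 10.5% and 8.36% over all genes. The neutrophil attractants Cxcl1 and Cxcl2 did not pass the threshold: Cxcl2 was at 13.7, 12.7 and 13.3 TPM with Helicobacter and 13.1, 10.1 and 12.2 TPM in untreated organoids, values that overlap. Its adjusted p by edgeR was 0.0552, and 0.0225 without Helicobacter replicate 2 and 0.0401 without untreated replicate 1. Cxcl5, also a neutrophil attractant, was abundant throughout and rose to 2279, 2002 and 2104 TPM with Helicobacter, against 1796, 1798 and 1846 TPM in untreated organoids (log2 0.33 ± 0.05). Ccl20, which attracts CCR6-bearing lymphocytes and dendritic cells, was lower, at 25.1, 19.8 and 22.3 TPM with Helicobacter and 31.4, 30.3 and 32.2 TPM in untreated organoids (log2 -0.38 ± 0.09). Among 20 tested cytokine genes 6 rose (30%) and 1 fell (5%), with a median log2 change of 0.29. The TNF family ligand Tnfsf9 was at 31, 29.6 and 29.4 TPM with Helicobacter and 14.4, 12 and 11.4 TPM in untreated organoids (log2 1.34 ± 0.11). Lif rose by log2 0.66 ± 0.06 and the receptor antagonist Il1rn by 0.46 ± 0.04.

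Of 24 tested sensors of bacteria and their adaptors, against 10.5% higher and 8.36% lower over all genes, 1 rose (the adaptor Ticam1, log2 0.34 ± 0.09) and 1 fell (Tlr3, the receptor for double-stranded RNA, log2 -0.20 ± 0.06). Without untreated replicate 1 neither passed, with adjusted p of 0.0607 and 0.126 by edgeR; Ticam1 also failed without untreated replicate 2 (0.0713) or Helicobacter replicate 2 (0.0508), and Tlr3 without Helicobacter replicate 3 (0.0557). Tlr4, the receptor for lipopolysaccharide, was at 18.2, 21.7 and 15.7 TPM with Helicobacter and 19.9, 20.2 and 17.3 TPM in untreated organoids, with a log2 change of 0.05 ± 0.09 that did not pass. Nod1, the sensor of peptidoglycan fragments, Alpk1, the kinase that senses ADP-heptose, and its adaptor Tifa did not pass either (log2 -0.26 ± 0.16, -0.20 ± 0.13 and 0.07 ± 0.16). Of 30 tested interferon-stimulated and antigen presentation genes 2 rose (6.67%) and 1 fell (3.33%). Host partners of the bacterial effector CagA and junction genes gave 4 rises and 3 falls among 26 tested (15.4% and 11.5%, close to the shares over all genes). Scaled by total alone they gave 2 rises and 6 falls, and with limma on log2(TPM + 1) 1 and 6. The tightening claudin Cldn4 was at 523, 555 and 527 TPM with Helicobacter and 393, 402 and 399 TPM in untreated organoids (log2 0.53 ± 0.04), while the pore-forming claudin Cldn2 was at 200, 209 and 188 TPM with Helicobacter and 258, 258 and 247 TPM in untreated organoids (log2 -0.25 ± 0.04).

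Of 24 tested immediate-early genes 11 rose and 7 fell, and related genes went both ways: Fosl2 rose (log2 0.35 ± 0.05) while Fos and Fosb fell, Ier5 rose (log2 0.21 ± 0.05) while Ier2 fell (log2 -0.20 ± 0.06), and Zfp36l1 rose (log2 0.18 ± 0.04) while Zfp36 fell (log2 -0.46 ± 0.06). Fosb had the largest of the 30 named falls, to 2.17, 3.13 and 2.17 TPM with Helicobacter, against 12.9, 14 and 12.3 TPM in untreated organoids (log2 -2.30 ± 0.15), and Fos fell to 78.2, 89.8 and 81.4 TPM with Helicobacter, against 176, 174 and 163 TPM in untreated organoids (log2 -0.94 ± 0.05). The zinc-finger factor Egr1 fell by 0.64 on the log2 scale and Myc by 0.24. The anti-apoptotic early gene Ier3 rose by log2 0.73 ± 0.05 and the small MAF factor Maff by 0.84 ± 0.07. MAPK phosphatases switch off MAP kinases, and any link to the Fos and Fosb falls was not tested. Of 15 tested MAPK phosphatases and Sprouty genes 5 rose and 0 fell (4 and 1 without Helicobacter replicate 1), with Dusp1 at 87.8, 85.3 and 78.3 TPM with Helicobacter and 56.2, 61.5 and 59.4 TPM in untreated organoids (log2 0.61 ± 0.05). Among 12 tested EGF receptor ligands and receptors, Ereg and Areg rose by log2 0.44 ± 0.05 and 0.41 ± 0.05 and the receptor inhibitor Errfi1 by 0.38 ± 0.04.

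Several secreted products of the gastric lining fell. Of 12 tested pit cell products 6 fell and 0 rose (median log2 -0.31), and 4 fell without Helicobacter replicate 1. Gkn1, the gastrokine secreted by pit cells, was at 173, 260 and 232 TPM with Helicobacter and 461, 690 and 522 TPM in untreated organoids (log2 -1.23 ± 0.18; edgeR adjusted p = 0.00195). Gkn2, which pairs with Tff1, was at 351, 578 and 533 TPM with Helicobacter and 1002, 1415 and 1110 TPM in untreated organoids (log2 -1.17 ± 0.19). Helicobacter replicate 1 was the lowest library for both, and without it the log2 changes were -1.08 ± 0.17 and -0.99 ± 0.14. Tff1 itself, among the most abundant transcripts, did not pass the threshold, at 7907, 9294 and 9750 TPM with Helicobacter and 9955, 10462 and 10705 TPM in untreated organoids (log2 -0.11 ± 0.08). The pit mucin Muc5ac was at 4.11, 9.25 and 5.27 TPM with Helicobacter and 12, 16.4 and 9.49 TPM in untreated organoids, a log2 change of -0.93 ± 0.31 that did not pass (edgeR adjusted p = 0.0726) but passed without Helicobacter replicate 2 (0.0142) and with DESeq2 (0.0245). In bulk RNA, fewer cells of a type and less RNA per cell cannot be told apart.

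The gland mucus genes Muc6, Tff2 and A4gnt fell. Muc6, the mucin of neck and gland cells, was at 8.13, 11.2 and 7.51 TPM with Helicobacter and 26.1, 26.7 and 20.6 TPM in untreated organoids (log2 -1.35 ± 0.17). Tff2, the trefoil peptide packed with it, was at 245, 284 and 276 TPM with Helicobacter and 577, 636 and 661 TPM in untreated organoids (log2 -1.12 ± 0.08). A4gnt, the transferase that adds the terminal α1,4-linked N-acetylglucosamine to the glycans of this mucin, was at 0.762, 0.882 and 0.619 TPM with Helicobacter and 3.82, 4.94 and 4.4 TPM in untreated organoids (log2 -2.43 ± 0.30). None of the 3 overlapped between the groups, which was a condition for naming Muc6 and Tff2 among the largest falls. Without Helicobacter replicate 1 the log2 changes of the 3 genes were -1.29 ± 0.19, -1.06 ± 0.09 and -2.44 ± 0.35. Of 11 tested neck cell products 5 fell and 2 rose, the others that fell being Agr2 (log2 -0.37 ± 0.06), a disulphide isomerase of mucus cells, and the chloride channel Cftr (log2 -0.71 ± 0.06).

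Beyond the neck list, 8 of 24 tested mucins and glycosylation genes fell and 1 rose; 13 fell when libraries were scaled by total alone, and 5 fell without Helicobacter replicate 3 or untreated replicate 2. Fut2, the fucosyltransferase that takes part in making the blood group antigen that the Helicobacter pylori adhesin BabA binds in humans, was at 60, 71.7 and 58.9 TPM with Helicobacter and 82.9, 85.1 and 82.4 TPM in untreated organoids (log2 -0.30 ± 0.05). Galnt5, which starts O-glycosylation, fell (log2 -1.11 ± 0.25), as did C1galt1, which extends it (log2 -0.23 ± 0.04), while the core 2 enzyme Gcnt1 rose (log2 0.63 ± 0.06). Of 8 tested genes of the chief cell list (median log2 -0.15) 2 fell (25%) and 1 rose (12.5%), against 8.36% and 10.5% over all genes. Without Helicobacter replicate 1, 3 fell and 1 rose (median 0.07). The gene that rose was Atf5, which is also counted in the integrated stress response list. Pgc, pepsinogen C, was at 6.74, 5.17 and 7.38 TPM with Helicobacter and 14.6, 19 and 21.8 TPM in untreated organoids (log2 -1.41 ± 0.17). Clps, colipase, fell as well (log2 -1.17 ± 0.16), at 18.9, 16.9 and 14.5 TPM with Helicobacter and 40.1, 49.8 and 32.7 TPM in untreated organoids. Pancreatic acinar cells make it too, and the acinar counts given above are also lower with Helicobacter; their part in the result was not tested.

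Mucosal defence genes gave 5 falls (26.3%) and 2 rises (10.5%) among 19 tested, against 8.36% and 10.5% over all genes. The receptor Pigr, which carries IgA across the epithelium, was at 23.3, 30.6 and 25.8 TPM with Helicobacter and 58.3, 62 and 62 TPM in untreated organoids (log2 -1.10 ± 0.07). The lectin Reg3g was at 6.57, 9.32 and 6.2 TPM with Helicobacter and 18.1, 23.7 and 20.6 TPM in untreated organoids (log2 -1.40 ± 0.18), and Reg3b at 1.11, 0.642 and 1.98 TPM with Helicobacter and 6.93, 6.36 and 4.65 TPM in untreated organoids (log2 -2.15 ± 0.47). Dmbt1, a scavenger receptor that binds bacteria, fell (log2 -0.78 ± 0.07), and so did Lypd8, which coats flagellated bacteria in mouse colon (log2 -1.55 ± 0.30). The iron-chelating lipocalin Lcn2 rose slightly, at 88, 84.9 and 89.1 TPM with Helicobacter and 76.9, 78.1 and 74.4 TPM in untreated organoids (log2 0.29 ± 0.06). Nos2 also passed, at under 0.4 TPM in every library of both groups, and its adjusted p by edgeR was 0.0554 without Helicobacter replicate 1. Summed neck cell markers, mostly Tff2, were 282 to 328 TPM with Helicobacter and 656 to 729 TPM in untreated organoids. Summed chief cell markers, mostly Pgc, were 5.83 to 7.91 TPM with Helicobacter and 15.3 to 22.1 TPM in untreated organoids. These sums largely repeat the falls of those genes given above. Summed pit cell markers, mostly Tff1, were 8440 to 10500 TPM with Helicobacter and 11400 to 12600 TPM in untreated organoids.

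**Figure D3:**
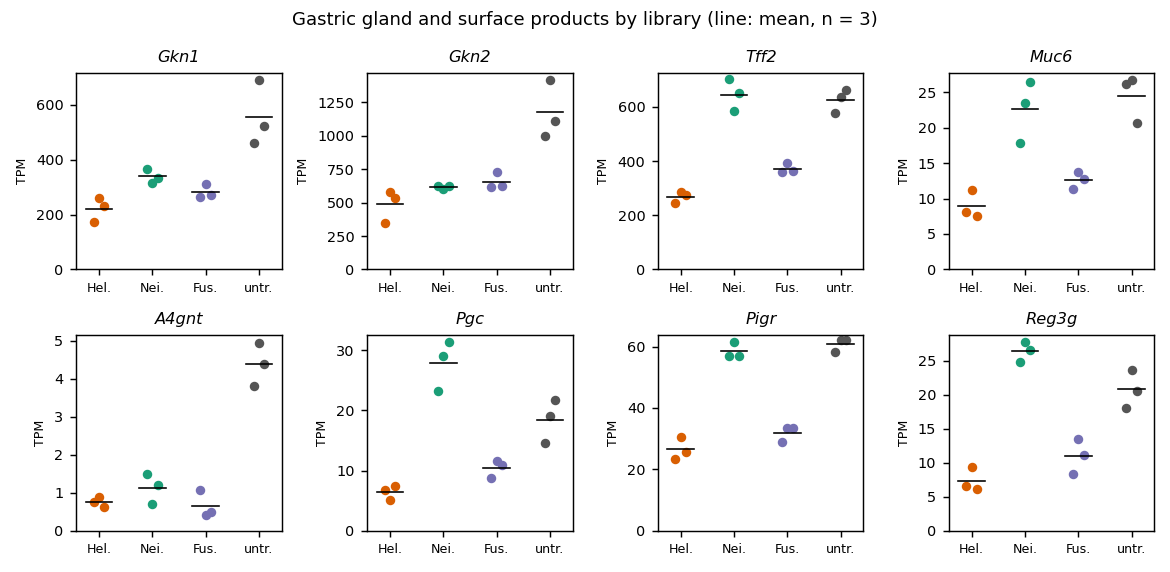
TPM of 8 gastric secretory and defence genes in each library (points) with the group mean (line, n = 3), for Helicobacter, Neisseria, Fusobacterium and untreated organoids from left to right. Muc6, Tff2, Pgc, Pigr and Reg3g lie lower with Helicobacter and Fusobacterium than with Neisseria, and A4gnt lies low with all 3 bacteria.

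Among stem cell, Wnt and Notch genes 7 of 27 tested fell (25.9%) and 4 rose (14.8%). The rises numbered 1 without untreated replicate 2 and 2 without Helicobacter replicate 2, Helicobacter replicate 3 or untreated replicate 3. Sox9, a factor of progenitor and gland-base cells, was at 9.79, 9.57 and 10.2 TPM with Helicobacter and 22.2, 24.4 and 25.4 TPM in untreated organoids (log2 -1.18 ± 0.09), and Sox2, of gastric progenitors, at 15.7, 16.9 and 17.2 TPM with Helicobacter and 26.2, 23.9 and 24.6 TPM in untreated organoids (log2 -0.49 ± 0.09). The Notch ligand Jag1 fell (log2 -0.60 ± 0.09), as did the Wnt receptor Fzd5 (log2 -0.32 ± 0.07) and Znrf3, which removes Wnt receptors from the membrane (log2 -0.41 ± 0.09). Lgr5, a marker of gland-base stem cells, rose, at 8.37, 9.99 and 8.23 TPM with Helicobacter and 7.64, 6.74 and 7.14 TPM in untreated organoids (log2 0.40 ± 0.11), with an adjusted p by edgeR of 0.00941 and of 0.0584 without untreated replicate 2. Axin2, a standard Wnt target, did not pass (log2 0.12 ± 0.18). Of 21 tested gastric transcription factors 3 rose (14.3%) and 2 fell (9.52%), close to the 10.5% and 8.36% over all genes. The falls numbered 4 without Helicobacter replicate 2 and 1 without any other library. The largest changes were Elf3, an epithelial ETS factor (log2 0.39 ± 0.04), and Foxq1, a regulator of gastric mucin (log2 0.33 ± 0.04), upward, and Gata4 downward (log2 -0.29 ± 0.06).

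Of 30 tested S-phase genes 5 fell (16.7%) and 0 rose, and of 30 tested G2 and M phase genes 3 fell (10%) and 1 rose (3.33%). Over all genes 8.36% fell and 10.5% rose. Leaving out each library in turn gave 2 to 4 S-phase falls and 1 to 6 G2 and M phase falls. Scaling by total alone gave 10 and 7 falls, and limma on log2(TPM + 1) gave 12 and 8. The replication helicase subunit Mcm5 was at 66.8, 69.4 and 63.8 TPM with Helicobacter and 82.6, 78.5 and 84.2 TPM in untreated organoids (log2 -0.20 ± 0.05), and Mki67 did not pass (log2 -0.36 ± 0.12) but had an adjusted p by edgeR of 0.00609 without Helicobacter replicate 2. Of 32 tested ribosome biogenesis genes 9 fell and 2 rose (median log2 -0.12), and 18 fell when libraries were scaled by total alone; Tcof1 fell by 0.41 on the log2 scale and Gnl3 by 0.29.

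Prostaglandin genes gave 3 rises (25%) and 1 fall (8.33%) among 12 tested, against 10.5% and 8.36% over all genes (median log2 0.09). The mRNAs that rose encode enzymes of 3 successive steps to prostaglandin E2. Pla2g4a, which frees arachidonic acid, rose slightly (log2 0.19 ± 0.04). Ptgs2, the inducible cyclooxygenase, was at 290, 277 and 265 TPM with Helicobacter and 181, 188 and 180 TPM in untreated organoids (log2 0.70 ± 0.04). Ptges, the terminal synthase of prostaglandin E2, was at 53.5, 53.5 and 53.7 TPM with Helicobacter and 9.65, 8.97 and 7.47 TPM in untreated organoids (log2 2.72 ± 0.07). Hpgd, which inactivates prostaglandins, had a log2 change of -0.37 ± 0.13 with an adjusted p of 0.049 by edgeR, and of 0.0568 to 0.176 when any of the 6 libraries was left out.

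Sterol genes rose by small amounts: 16 of 28 tested genes of cholesterol synthesis and uptake rose and 1 fell (median log2 0.15), and 13 rose and 1 fell without Helicobacter replicate 1. Hmgcs1, at the entry of the pathway, was at 313, 323 and 311 TPM with Helicobacter and 240, 243 and 241 TPM in untreated organoids (log2 0.49 ± 0.04), and the sterol demethylation enzyme Msmo1 rose by 0.54 ± 0.05. Scaled by total alone, 12 rose and 1 fell. Lipid droplet and fatty acid genes gave 6 rises and 6 falls among 29, but 5 rises and 10 falls when scaled by total alone or with limma on log2(TPM + 1); Pparg, a nuclear receptor of fat metabolism, was at 91.7, 97.3 and 98.6 TPM with Helicobacter and 65.6, 63.9 and 61.6 TPM in untreated organoids (log2 0.69 ± 0.05), and Hilpda, a lipase inhibitor of lipid droplets, rose by 0.88 ± 0.08.

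Of 33 tested NRF2, glutathione and thioredoxin genes 7 rose (21.2%) and 6 fell (18.2%), against 10.5% and 8.36% over all genes. Without Helicobacter replicate 2, 13 rose. Scaled by total alone 5 rose and 10 fell, and with limma on log2(TPM + 1) 4 rose and 13 fell. Haem oxygenase Hmox1 was at 164, 187 and 178 TPM with Helicobacter and 106, 108 and 101 TPM in untreated organoids (log2 0.85 ± 0.05). Gclc, the rate-limiting enzyme of glutathione synthesis, was at 560, 576 and 501 TPM with Helicobacter and 925, 940 and 901 TPM in untreated organoids (log2 -0.66 ± 0.04), and the sulfiredoxin Srxn1 fell by 0.32 on the log2 scale. The factor Nfe2l2 (NRF2) itself rose by log2 0.33 ± 0.04. Of 23 tested iron, zinc and metallothionein genes 6 rose (26.1%) and 3 fell (13%). But 4 rose and 6 fell when scaled by total alone, and 3 rose without untreated replicate 2. Metallothioneins Mt1 and Mt2, which bind zinc, rose by log2 0.50 ± 0.06 and 0.38 ± 0.06, and the zinc importers Slc39a14 and Slc39a10 fell by 0.55 and 0.24 on the log2 scale while the importer Slc39a1 rose (log2 0.14 ± 0.04).

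Of 24 tested p53 targets 10 rose and 2 fell, and of 18 tested BCL2 family genes 7 rose and 1 fell. Some genes that rose, among them Pmaip1, are counted in both lists. Without untreated replicate 2 the rises numbered 6 and 4, and the BCL2 family also gave 4 without Helicobacter replicate 3. Pmaip1, the pro-apoptotic protein NOXA, was at 271, 257 and 256 TPM with Helicobacter and 138, 138 and 151 TPM in untreated organoids (log2 0.98 ± 0.05). The growth arrest gene Gadd45a rose by log2 1.42 ± 0.08, the cell cycle inhibitor Cdkn1a by 0.35 ± 0.04, and anti-apoptotic Bcl2 fell by 0.50 on the log2 scale. Of 34 tested autophagy and lysosome genes 10 rose and 1 fell; the cargo receptor Sqstm1 rose by log2 0.37 ± 0.04 and Rragd, a GTPase of the lysosomal mTORC1 switch, by 1.04 ± 0.12. Ncoa4, which sends ferritin to the lysosome, was at 211, 223 and 207 TPM with Helicobacter and 135, 142 and 135 TPM in untreated organoids (log2 0.74 ± 0.04).

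Helicobacter replicate 1 mattered for pancreatic genes most. In the fit with all libraries 3 of 11 tested acinar genes and 2 of 12 tested islet genes were lower; without replicate 1, 10 of 11 and 10 of 12 were. Ins2, an insulin gene, was at 102 TPM in Helicobacter replicate 1 and 2.53 and 0.0867 TPM in replicates 2 and 3, against 153, 202 and 151 TPM in untreated organoids. The pancreatic polypeptide Ppy and the trypsinogen Try4, which passed with all libraries, show the same split and are not counted among the named falls. The part of these transcripts in the remaining results was not tested. Passing without replicate 1 was a condition for the 60 named rises and falls; of all genes, 144 of the 168 changed by at least 2-fold were called the same way without it (104 of 119 higher, 40 of 49 lower).

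**Figure D4:**
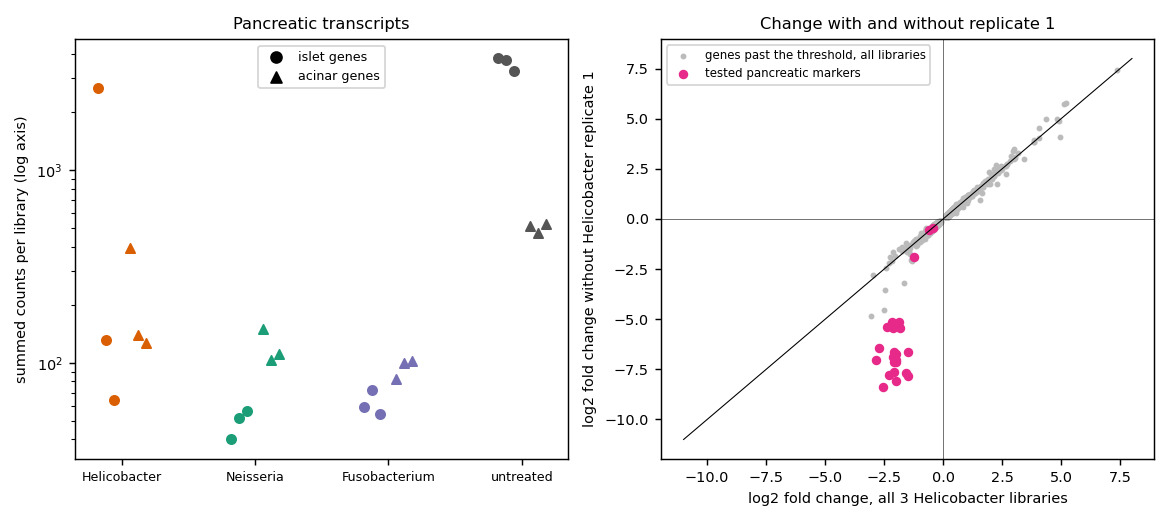
Left: summed counts of pancreatic islet genes (circles) and acinar genes (triangles) in each library, by group, on a log axis. Right: log2 fold change, Helicobacter minus untreated, with all libraries (x) and without Helicobacter replicate 1 (y) for the 2419 genes past the threshold (grey) and for tested pancreatic markers (pink), whose fitted changes without replicate 1 depend on a prior count because some libraries hold 0 counts; other genes follow the line of equal change.

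Set directly against the other bacteria, the Helicobacter libraries differed from the Neisseria libraries in 36.7% of tested genes (17.7% higher, 19% lower) and from the Fusobacterium libraries in 65.3% (33.5% higher, 31.8% lower). These contrasts use the same Helicobacter libraries as the one with untreated organoids, so the counts that follow are descriptions. Of the 119 genes that rose by at least 2-fold over untreated organoids, 75 were lower with Helicobacter than with Neisseria, 3 were higher (Cybrd1, Dnd1 and Gm11992) and 41 did not pass. Against Fusobacterium 51 of them were higher with Helicobacter, 28 lower and 40 did not pass.

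The hypoxia genes were mostly lower with Helicobacter than with Neisseria and went both ways against Fusobacterium. Of 35 tested, 0 were higher and 30 lower with Helicobacter than with Neisseria (median log2 difference -0.79), and 18 were higher and 13 lower than with Fusobacterium (median 0.18). Ankrd37 averaged 147 TPM with Helicobacter, and its libraries read 313, 306 and 272 TPM with Neisseria and 22.5, 22 and 25 TPM with Fusobacterium, so the log2 difference was -1.12 ± 0.08 from Neisseria and 2.80 ± 0.10 from Fusobacterium. Adm and Pfkfb3 lay on the other side, lower with Helicobacter than with Fusobacterium by log2 differences of -1.26 ± 0.10 and -0.32 ± 0.05. Adm2 (intermedin) and Ak4, which are not on the list, were higher than with Fusobacterium (log2 2.74 ± 0.20 and 1.99 ± 0.06). Of 15 AHR genes 1 was higher and 5 lower than with Neisseria, and 9 were higher and 4 lower than with Fusobacterium (median 0.24). Cyp1a1 was lower with Helicobacter than with Neisseria (97.6, 100 and 99.7 TPM) and with Fusobacterium (155, 157 and 163 TPM), with log2 differences of -1.31 ± 0.05 and -1.75 ± 0.05, whereas Cyp1b1, Ahrr and Cyp2s1 were higher than with Fusobacterium (log2 differences 0.71 ± 0.03, 0.46 ± 0.09 and 0.95 ± 0.06). Cyp2s1 did not pass against Neisseria (log2 -0.02 ± 0.06).

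Inflammatory genes were mostly lower with Helicobacter in the direct comparison. Of 24 tested NF-κB genes 21 were lower with Helicobacter than with Neisseria and 17 lower than with Fusobacterium, and of 13 chemokines 10 and 9 were lower. Cxcl2 was at 13.7, 12.7 and 13.3 TPM with Helicobacter, 309, 290 and 308 TPM with Neisseria and 359, 333 and 355 TPM with Fusobacterium (log2 differences -4.62 ± 0.07 and -4.59 ± 0.07). Ccl20 was at 25.1, 19.8 and 22.3 TPM with Helicobacter, 370, 345 and 330 TPM with Neisseria and 131, 132 and 133 TPM with Fusobacterium. For unfolded protein response genes 23 of 26 were lower with Helicobacter than with Neisseria (median -1.03), against 14 higher and 5 lower relative to Fusobacterium. Hspa5 differed by log2 -2.0 ± 0.04 from Neisseria.

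Gland products were set against the other bacteria in the same way. Muc6 was at 8.13, 11.2 and 7.51 TPM with Helicobacter, 17.8, 23.5 and 26.4 TPM with Neisseria and 11.4, 13.7 and 12.7 TPM with Fusobacterium; the log2 difference was -1.44 ± 0.17 from Neisseria (edgeR adjusted p = 0.000117) and -0.36 ± 0.17 from Fusobacterium, which did not pass. Tff2 differed by -1.37 ± 0.08 from Neisseria and by -0.34 ± 0.09 from Fusobacterium, and Pgc by -2.21 ± 0.17 and -0.57 ± 0.19, all past the threshold. Pigr and Reg3g were also lower than with Neisseria (log2 differences -1.25 ± 0.07 and -1.95 ± 0.18), while A4gnt did not differ from either beyond the threshold (-0.71 ± 0.34 and 0.32 ± 0.38). Of the 49 genes that fell by at least 2-fold, 11 were lower with Helicobacter than with Neisseria, 5 were higher and 33 did not pass. Sox9 stood on the other side, higher with Helicobacter than with Neisseria (3.85, 4.64 and 4.16 TPM) and Fusobacterium (7.38, 6.27 and 7.34 TPM), by log2 1.12 ± 0.10 and 0.63 ± 0.10.

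**Figure D5:**
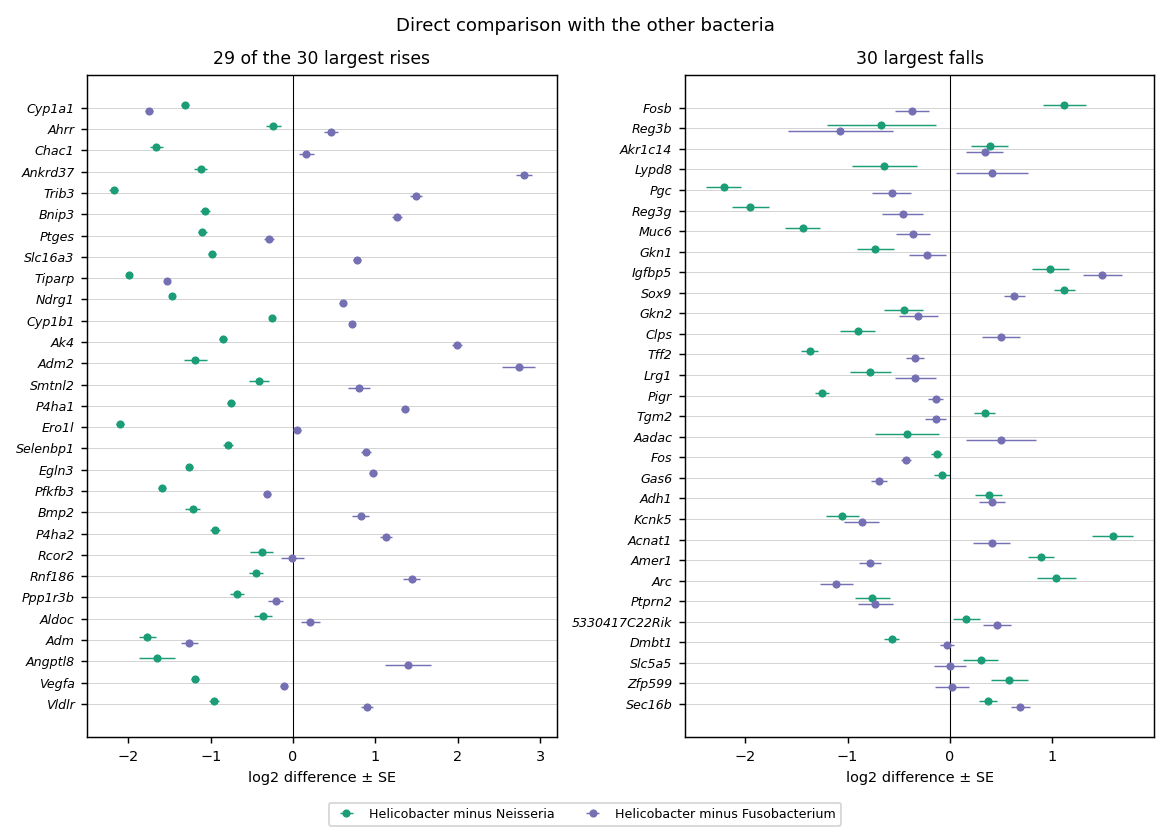
Log2 difference ± SE of Helicobacter minus Neisseria (green) and Helicobacter minus Fusobacterium (purple) for 29 of the 30 largest rises (left) and the 30 largest falls (right) over untreated organoids, in 3 libraries a group. All 29 rises shown lie left of 0 for Neisseria, while Ankrd37, Adm2 and Ak4 lie far right of 0 for Fusobacterium.

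Helicobacter went beyond both other bacteria and untreated organoids in 55 genes that were higher and 65 that were lower in all 3 contrasts, out of 12805 tested. Ranked by the smaller of the differences from the other bacteria, the first of the higher ones was Ivl, involucrin, a protein of the cornified envelope of squamous cells, at 44.1, 42.6 and 39.9 TPM with Helicobacter, 18.7, 17.6 and 17.4 TPM with Neisseria, 18.5, 19.2 and 15.9 TPM with Fusobacterium and 37.6, 35.4 and 37.3 TPM in untreated organoids. Its adjusted p against untreated organoids by edgeR was 0.00898, and it was 0.0532 without Helicobacter replicate 1 and 0.0565 without untreated replicate 2. The ranking does not use the change from untreated organoids, which was log2 0.30 ± 0.08 for Ivl and -0.38 ± 0.09 for Ccl20. Lbh, a transcription cofactor, exceeded its level with Neisseria by log2 0.81 ± 0.07, with Fusobacterium by 1.39 ± 0.08 and in untreated organoids by 0.50 ± 0.07. For Lgr5 these differences were 0.79 ± 0.11, 0.80 ± 0.11 and 0.40 ± 0.11. Among the lower ones were Ccl20, Slc7a11 and Kcnk5, a potassium channel that was at 3.24, 2.87 and 2.08 TPM with Helicobacter, 5.53, 4.54 and 5.8 TPM with Neisseria, 5.27, 5.6 and 5.47 TPM with Fusobacterium and 6.05, 4.37 and 5.9 TPM in untreated organoids. The interleukin Il1f9 (IL-36γ) was lower too, with log2 differences of -1.91 ± 0.11 from Neisseria, -1.33 ± 0.11 from Fusobacterium and -0.48 ± 0.12 from untreated organoids.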

How the data were processed

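Bulk RNA-seq covered 12 mouse gastric organoid libraries, 3 each for Helicobacter pylori, Neisseria subflava, Fusobacterium nucleatum and no treatment. The authors deposited whole-number counts per gene, per the file headers, with no normalization seen in the values. Levels are given in the TPM that the authors computed and deposited. The submitters' processing notes name the build GRCm38; the aligner, the counting tool and the use of strand are not given in the sources used here, so antisense and overlapping genes and close paralogs may share reads. Another 24 per-sample columns (RPKM and CPM) were not used. The column names of replicate 3 of the Helicobacter and the untreated group carry the mark L0 and all others L1; its meaning is not stated.

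The deposited counts were tested with edgeR 4.0.16 in R 4.3.3 (default low-count filter, TMM scaling, robust quasi-likelihood F test, two-sided, all 12 libraries fitted together, 1 coefficient for each group). The 12805 genes tested hold 99.96% of counts, and p-values were adjusted over them by Benjamini-Hochberg. Standard errors are the log2 change divided by the square root of F. Replicates differed by more than counting noise, and more so among Helicobacter libraries. Chi-square per degree of freedom was 5.2 to 10.8 between Helicobacter libraries (highest for replicates 2 and 3) and 2.39 to 4.84 between untreated ones. The biological coefficient of variation, shared by all 12 libraries, was 5.71%. The test was also run on simulated counts with the same spread for every gene and library and changes in the Helicobacter group only. Real libraries differ from that setting, so the run cannot show how the test does with their spread.

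The gene lists, the comparison and its members were chosen with earlier results of these data known. Named are the 30 largest rises and falls that passed with and without Helicobacter replicate 1, averaged at least 5 TPM where they were higher, did not overlap between the groups and are no pancreatic markers; up to 5 members per list with the smallest adjusted p; regulators of a list whatever their p; and the 8 largest genes each way beyond both other bacteria. A gene among the largest rises is not reported here by name. Examples for a statement about a list (Epcam, Atp4a, Atp4b, Ins2, Ppy, Try4, Fosl2, Ier2, Ier5, Zfp36, Zfp36l1, Slc39a1) were chosen after their values were seen. Replicate numbers were not used to pair the samples in the main fit, and nothing in the labels says whether they do. No correlation of the deviations of same-numbered libraries passed 0.1, though each Helicobacter library correlated best with its own number. Alternatives were DESeq2 1.42.0, limma 3.58.1 on log2(TPM + 1) and log2(TPM + 0.1), other scalings and filters, a replicate block, only the compared libraries and each library left out.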

Additional observations from a re-analysis of the deposited data

How the results depend on the processing

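The 60 named rises and falls kept their direction under every alternative in which they were tested, and Aadac was the sole loss of a call, in 4 of them (without Helicobacter replicate 3, without untreated replicate 2, without untreated replicate 3, and with only the libraries marked L1, which was chosen after seeing the data). These 60 genes were chosen as large changes that passed without Helicobacter replicate 1 and did not overlap between the groups. Their agreement under the alternatives was therefore largely set by that choice. Counts over all genes moved more. Scaling by the total alone gave 863 higher and 1824 lower genes, limma on log2(TPM + 0.1) 667 and 1931, limma on log2(TPM + 1) 659 and 2012, and the L1 libraries 976 and 693. The count lower by at least 2-fold was 79 with limma on log2(TPM + 0.1) and 23 with a filter of 50 counts in 3 libraries, and the count higher by at least 2-fold was 58 with limma on log2(TPM + 1), where the pseudocount shrinks low genes. Leaving out each library in turn gave 1594 to 3136 calls (lowest without untreated replicate 1, highest without Helicobacter replicate 2), 923 to 1658 higher, 653 to 1478 lower (lowest without Helicobacter replicate 3), 103 to 121 higher and 37 to 79 lower by at least 2-fold, the 79 being without Helicobacter replicate 1. The calls against Neisseria ranged from 3944 to 4443 and against Fusobacterium from 7761 to 8346. DESeq2 gave 1222 higher and 1108 lower genes. The cause of the other shifts was not tested.

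With the replicate number as a block, 1400 genes were higher and 1160 lower. Correlations of deviations between same-numbered Helicobacter and untreated libraries were 0.0164, 0.0805 and 0.0919; every Helicobacter library correlated best with its own number, a hint from the data and not from the design. Nos2 had 15, 7 and 6 counts with Helicobacter and 0, 4 and 0 in untreated organoids, so its size is not resolved at this depth.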
